A study of Bos taurus with 20 samples.

Results

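The oxytocin receptor gene OXTR and the cyclooxygenase gene PTGS2 were followed in bovine endometrium on day 18, as all clones of the 18KO array that the array's gene table assigns to one of these symbols alone. They were 7 of the 1536 clones of that array, 6 for OXTR and 1 for PTGS2, and the 18KB array had 0 such clones among those with a name. Pregnant heifers (n = 4) had been inseminated with frozen-stored semen and carried an intact conceptus, which was taken out before sampling. Control heifers (n = 6) had received the centrifuged, sperm-free supernatant of semen from the same bull and were at day 18 of the estrous cycle with no conceptus found. All were Simmental heifers of 17 to 22 months whose cycle had been synchronised with 500 µg of the prostaglandin analogue cloprostenol. The tissue was intercaruncular endometrium, cut from the lamina propria at the caudal end of the ipsilateral horn, and its cell types were not separated. In such a sample fewer cells of a type and less RNA per cell cannot be told apart.

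The oxytocin receptor is a G protein-coupled receptor of the endometrial epithelium and of uterine muscle. In cyclic ruminants oxytocin acts through it to release pulses of prostaglandin F2alpha from the endometrium, and these pulses end the life of the corpus luteum. PTGS2, also called cyclooxygenase-2, is the inducible enzyme that makes prostaglandin H2, the common precursor of prostaglandins F2alpha and E2. Interferon tau, secreted by the ruminant conceptus, is known, chiefly from work in sheep, to keep the endometrial oxytocin receptor low and so to rescue the corpus luteum.

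Both arrays carry PCR products of subtracted cDNA clones. Those of the 18KO array come from a library enriched for transcripts of the controls, those of the 18KB array from one enriched for transcripts of pregnant animals. Probes made from each animal's RNA carried phosphorus-33 and were applied to both arrays in 1 vial, and the values are spot intensities in arbitrary linear units. Medians of the 10 columns of the 18KO array ran from 1.67 in pregnant 448 to 3.90 in control 449, and Pearson r between log2 columns within a group was 0.940 to 0.980. The 18KO array of pregnant 316 was hybridised again later, because its spots had blurred, and the authors placed its values by their ratios to a pair of other samples run with it. Clones were sequenced by the authors chiefly because they differed between these same animals, and 45.3% of named clones against 3.79% of the others were called different here. A decrease of a named gene is therefore not independent evidence. The number of arrays limits the precision of every value.

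OXTR was lower in the endometrium of every pregnant animal than in any control. The geometric mean intensity of its 6 clones was 0.155 in pregnant 316, 0.0954 in pregnant 426, 0.103 in pregnant 447 and 0.111 in pregnant 448, against a lowest value of 0.777, a median of 1.66 and a highest value of 2.31 in the 6 controls. The groups did not overlap, and the lowest control lay well above the highest pregnant animal. Its log2 level averaged -3.13 ± 0.31 in the pregnant group (SD, n = 4) and 0.52 ± 0.64 in the control group (SD, n = 6). The difference was -3.65 ± 0.33 (SE), a 12.6-fold decrease with a 95% interval of 7.68-fold to 20.6-fold (limma, adjusted p = 5.91e-06 over 1471 features). The two-sided exact permutation p over all 210 splits of the animals was 0.00476, the smallest they can give.

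The size of this decrease rests on intensities near the bottom of the array's scale. The 10th percentile of all 18KO intensities was 0.37, and the OXTR mean of all 4 pregnant animals, but of 0 controls, lay below it. With every lower value raised to that percentile OXTR changed by -1.93 ± 0.31 and was still called (limma adjusted p = 0.00666), and with a pseudocount of 0.23 it changed by -2.13 ± 0.27. The direction and the call held under all 23 alternatives that gave a value for OXTR, with log2 fold changes of -4.04 to -1.93.

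PTGS2 was not called different, and its single clone gave overlapping groups. Its intensity was 1.85 in pregnant 316, 1.11 in pregnant 426, 1.22 in pregnant 447 and 1.72 in pregnant 448, against a lowest value of 0.58, a median of 2.31 and a highest value of 7.60 in the controls. The pregnant animals thus lay close together, inside the range of the controls, which reached both below and above them. Its log2 level averaged 0.53 ± 0.36 in pregnant animals (SD, n = 4) and 1.00 ± 1.42 in controls (SD, n = 6), and the fitted difference was -0.47 ± 0.60 (SE, limma adjusted p = 0.666). Its 95% interval ran from a 3.37-fold decrease to a 1.75-fold increase, so these animals do not show that the gene was equal in the groups. The value was -0.09 without control 404 and -0.83 without control 427, the highest and the lowest control, and the two-sided exact permutation p was 0.538.

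**Figure D1:**
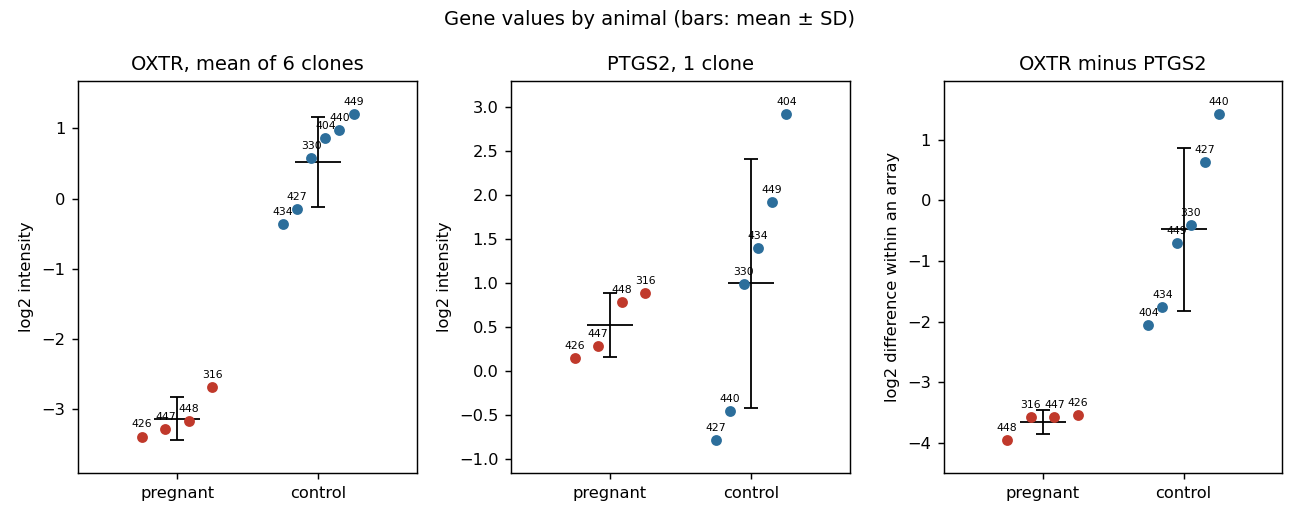
Log2 intensity of OXTR (mean of 6 clones), of PTGS2 (1 clone) and their difference within an array, for 4 pregnant animals (left) and 6 controls (right), each point an animal with its number and each bar a mean ± SD. OXTR separated the groups without overlap, from -3.39 to -2.69 in pregnant animals, while the pregnant values of PTGS2 lay inside the control range.

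Both genes are measured on the same array of each animal, so their changes could be set against each other. The log2 difference OXTR minus PTGS2 averaged -3.66 ± 0.20 in the pregnant animals (SD, n = 4) and -0.48 ± 1.35 in the controls (SD, n = 6). OXTR therefore changed by 3.18 more than PTGS2 in the negative direction (difference of -3.18, two-sided exact permutation p = 0.00952). All 4 pregnant animals, from -3.96 to -3.54, lay below all 6 controls, from -2.06 in control 404 to 1.43 in control 440. The difference does not depend on a factor applied to a whole column, but it depended on low values: with the floor at the 10th percentile it was -1.45 and its exact permutation p was 0.0905.

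All 6 OXTR clones were called lower in pregnant endometrium, where 6.32% of the 1536 clones of the array were called lower. Among its 137 named clones, sequenced chiefly because they differed, 45.3% were called in either direction. Clone 18KO-18-D02 was the brightest, with intensities of 0.24, 0.15, 0.21 and 0.22 in pregnant 316, 426, 447 and 448, against 1.60 at the lowest, 3.65 in the median and 4.31 at the highest in controls. It fell 15.0-fold (log2 fold change -3.91 ± 0.33, limma adjusted p = 4.00e-06), and 8.18-fold with the floor at the 10th percentile. All of its pregnant values lay below its lowest control.

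Clone 18KO-07-G05 read 0.21, 0.12, 0.19 and 0.15 in pregnant 316, 426, 447 and 448, against 0.69 to 2.04 with a median of 1.33 in controls (-2.90 ± 0.32). Clone 18KO-12-A12 read 0.19, 0.12, 0.21 and 0.25 in the same order, against 0.87 to 3.01 with a median of 1.51 in controls (-3.09 ± 0.39). Clone 18KO-11-C11 read 0.25, 0.12, 0.07 and 0.08, against 0.44 to 2.52 with a median of 1.48 in controls (-3.42 ± 0.49). In each of these clones every pregnant animal lay below every control, though pregnant 316 was the highest pregnant animal in 18KO-07-G05 and 18KO-11-C11 and the second lowest in 18KO-12-A12.

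The remaining clones were the extremes of the gene. Clone 18KO-16-A11 was listed at 0.00 in pregnant 316 and at 0.01 in the other pregnant animals, the bottom of the scale, against 0.58 to 2.44 with a median of 1.29 in controls, so no fold is given for it. Without this clone OXTR changed by -3.0 ± 0.33, an alternative chosen after seeing the data. Clone 18KO-14-F01 had the smallest decrease (-1.71 ± 0.34, limma adjusted p = 0.00356), with 0.58, 0.29, 0.20 and 0.28 in pregnant 316, 426, 447 and 448 and 0.58 to 1.42 with a median of 1.09 in controls. It was the one OXTR clone whose groups touched, since pregnant 316 and control 434 had the same value. The groups were thus fully apart in 5 of the 6 clones, against 12.2% of all clones with every pregnant animal below every control. Most clones behind that share had no name. The share among the named clones, sequenced chiefly because they differed, was not counted.

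**Figure D2:**
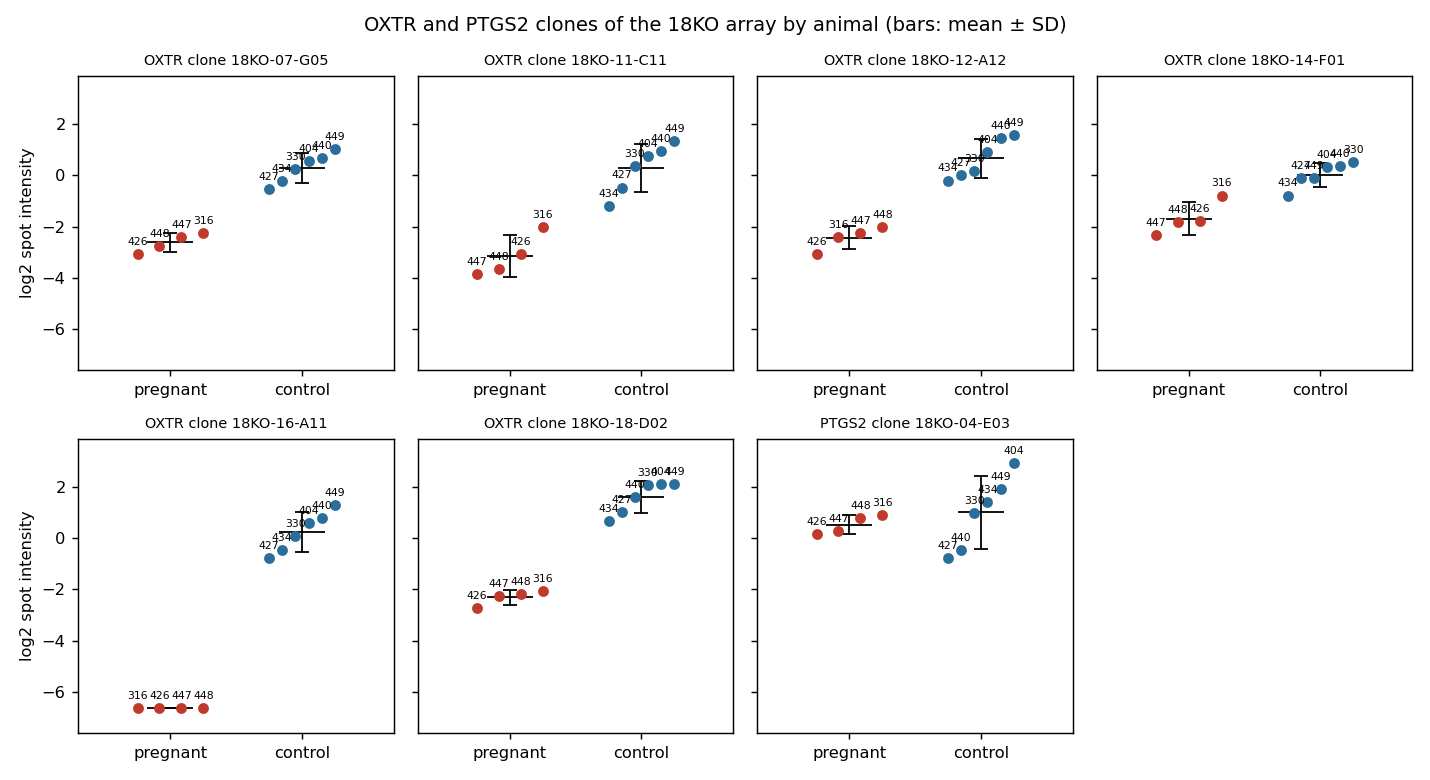
Log2 spot intensity of each OXTR clone and of the PTGS2 clone in 4 pregnant animals (left in each panel) and 6 controls (right), with animal numbers, mean and SD. The 4 pregnant values of clone 18KO-16-A11 sit at the floor of 0.01, and clone 18KO-14-F01 is the one OXTR clone in which a pregnant animal (316) reached the lowest control (434).

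With the floor at the 10th percentile, 3 of the 6 OXTR clones kept an adjusted p under 0.01 (18KO-07-G05, 18KO-12-A12 and 18KO-18-D02), and the other clones had log2 fold changes of -1.72 (18KO-11-C11), -1.68 (18KO-16-A11) and -1.30 (18KO-14-F01). The 6 clones also ranked the controls alike. Control 449 had the highest intensity in 5 of the clones, and control 434 or 427 the lowest in all 6. Over the 6 controls the correlation of a clone with the mean of the other OXTR clones was 0.877, 0.843, 0.939, 0.928 and 0.983 for 18KO-12-A12, 18KO-18-D02, 18KO-07-G05, 18KO-16-A11 and 18KO-11-C11, and 0.595 for 18KO-14-F01, which had control 330 on top. These clones share the arrays and the RNA of each animal, so the values describe how alike spots of one gene read and are not replicates of pregnancy.

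How OXTR ranked on the array depended on its lowest values. Of 1471 features, which were 72 named genes and every clone without a single symbol, 57 were called lower (3.87%) and 13 higher (0.884%), or 4.76% in either direction. OXTR ranked 11th by the size of its decrease and 8th by its p-value, while PTGS2 ranked 374th by decrease. Among the 72 named genes only OLFM2, an olfactomedin, had a larger decrease (-3.81 ± 0.72) on the values as deposited. With the floor at the 10th percentile OXTR (-1.93) ranked 32nd by decrease and 33rd by p-value, and 9 named genes had a larger decrease, among them PLK2 (-2.63), COL6A3 (-2.44), GADD45G (-2.41) and COL1A1 (-2.28). The median log2 fold change of all features was -0.02, and it was 0.31 with equal column medians, 0.19 after quantile normalization and -0.27 with 1 factor per animal. Calls split into 80 higher and 62 lower, 52 and 70, and 12 and 159 under these scalings. OXTR changed by -3.32, -3.60 and -3.90 under them, and PTGS2 by -0.14, -0.18 and -0.72, so both stayed below 0 and only OXTR was called.

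**Figure D3:**
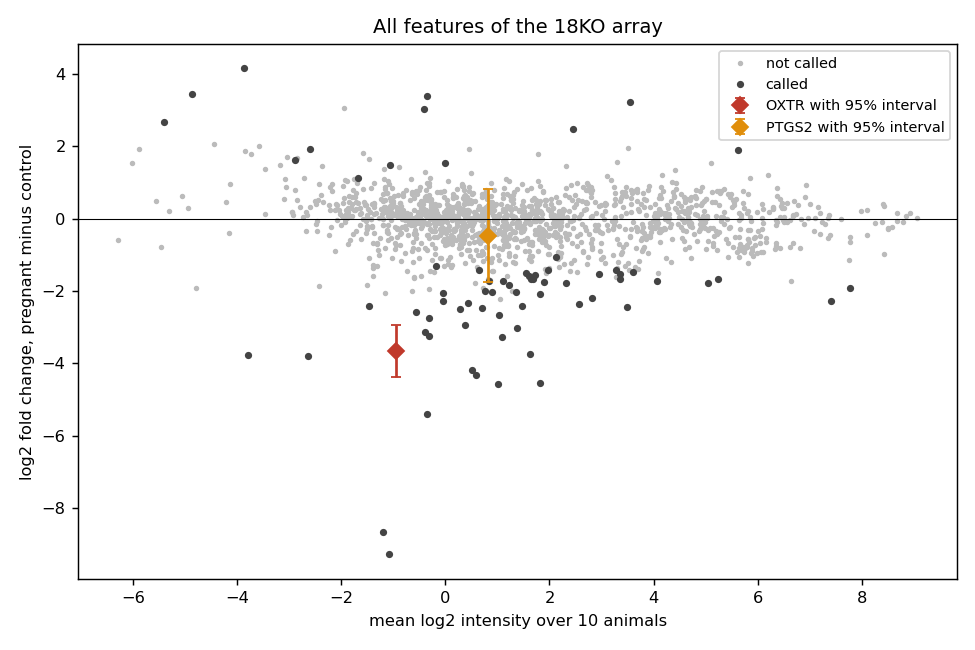
Log2 fold change (pregnant minus control) against mean log2 intensity over 10 animals for all 1471 features of the 18KO array, with the 70 called features in dark grey. OXTR (-3.65) lies below the bulk of features of its intensity, and the 95% interval of PTGS2 (-0.47) spans 0.

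OXTR made up 6 of the 97 clones called lower, or 6.19%, and another 52 carried other single symbols. Of the clones without a single symbol 30 were called with a decrease at least as large as that of the weakest OXTR clone. Among these, 18 also followed OXTR across the 6 controls at least as closely as its least typical clone followed the others (r of 0.595 or more), or 60%. The same r was reached by 299 of all 1399 clones without a single symbol, or 21.4%. The 6 controls carry little information on such likeness, and the genes of these clones are not named here.

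Few other genes of the oxytocin and prostaglandin pathways had a named clone. Of 13 genes for oxytocin and its signalling only OXTR was named on either array. Of 28 genes of prostaglandin synthesis, transport and receptors PTGS2 and ANXA2 were named, both on the 18KO array, and 0 of the 2 were called. ANXA2, a calcium-dependent membrane-binding protein, had 8.26, 7.56, 10.4 and 6.64 in pregnant 316, 426, 447 and 448, against 12.4 to 37.4 with a median of 16.7 in controls. Its groups were apart, but the value of -1.16 ± 0.31 missed the call (limma adjusted p = 0.0253) and passed it with 1 factor per animal (-1.41). With equal column medians (-0.83) and after quantile normalization (-0.96) ANXA2 stayed under a 2-fold change and was not called. The median of these 2 genes was -0.82, against -1.34 over the 72 named genes and -0.02 over all features.

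Of 11 steroid receptors and partners the one named gene was NR2F2, an orphan nuclear receptor of uterine stroma, which rose (1.52 ± 0.33, limma adjusted p = 0.00962). It had 1.09 to 2.88 with a median of 1.98 in pregnant animals and 0.47 to 1.26 with a median of 0.585 in controls, with overlap. This call lay at the edge: it was lost in 8 of the 10 fits without 1 animal (held without pregnant 448 or control 449) and with the floor at the 10th percentile. The estrogen and progesterone receptor genes had no named clone here.

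On the 18KB array, 3 of 14 genes of interferon signalling were named and all 3 were called higher. On that array 15.6% of the 1420 features were called higher, but so were 67 of the 86 named genes (77.9%), since clones were named for differing, so the count of 3 is near the share of named genes. The median log2 fold change of its features was 0.38, and it was -0.45 with equal column medians, -0.32 after quantile normalization and 0.13 with 1 factor per animal. USP18, a protease that removes ISG15 from proteins, was 3.57 to 6.75 with a median of 4.90 in pregnant animals and 0.613 to 1.60 with a median of 0.653 in controls (2.65 ± 0.30, limma adjusted p = 7.61e-05). It was called under every scaling and without any 1 animal. IRF9, the DNA-binding subunit of the factor that type I interferons activate, was 1.77 to 2.97 in pregnant animals and 0.48 to 1.53 in controls (1.64 ± 0.31), a call lost with equal column medians (0.81) and after quantile normalization (0.82). IFNT2, an interferon tau gene of the conceptus, was 0.586 to 6.95 in pregnant animals and 0.377 to 0.683 in controls, and its call (2.16 ± 0.52) held without pregnant 316 or control 427 and was lost without any other 1 animal. For USP18 and IRF9 the groups did not overlap, as for most named genes of the 18KB array. Control 427, the highest control for both (1.60 and 1.53), was the second lowest control for OXTR (0.900), and control 434, the lowest for OXTR, had 0.664 and 0.59.

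Among 26 inducible early genes 3 were named on the 18KO array, and 2 were called lower, as were 21 of the 72 named genes of that array (29.2%). GADD45G, a stress-induced growth regulator, was 0.161 to 0.239 with a median of 0.220 in pregnant animals and 1.37 to 3.61 with a median of 1.94 in controls. Its decrease of -3.24 ± 0.29 was called (limma adjusted p = 5.91e-06), and its pregnant values too were all under 0.37. The calls of GADD45G and PLK2 held under every scaling, with the raised floor and without any 1 animal. PLK2, a polo-like kinase, was 0.431 to 0.855 with a median of 0.748 in pregnant animals and 3.14 to 6.46 with a median of 4.15 in controls (-2.67 ± 0.29). DUSP5, a phosphatase of mitogen-activated kinases, missed the call (-1.83 ± 0.51, limma adjusted p = 0.0305) and passed it with 1 factor per animal. Its pregnant values, 0.08 to 0.22, were also all under 0.37. With the floor at the 10th percentile it changed by -0.79 (limma adjusted p = 0.294).

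Likeness to OXTR was measured as the Pearson correlation with each of the other 71 named 18KO genes over the 10 animals. For levels, which follow the difference between the groups, the highest values were 0.95 for PLK2, 0.943 for GADD45G, 0.940 for the smooth muscle actin ACTA2, 0.934 for the glycosyltransferase A4GALT and 0.925 for the tubulin TUBB. For deviations from the group means they were 0.814 for the ubiquitin ligase RNF144B, 0.801 for the calcium-binding protein S100G, 0.770 for CDCA7L, 0.746 for the transcription factor SOX4 and 0.706 for ACTA2. Without controls 434 and 449, the animals farthest from the median, these became 0.732, 0.752, 0.726, 0.431 and 0.657. S100G read 6.42 to 8.54 in pregnant animals and 11.9 to 53.0 in controls, with control 449 highest, as for OXTR. Control 449 also had the highest column median (3.90) and was the highest control for ACTA2, PLK2 and GADD45G. Its place at the top is thus not particular to OXTR and S100G.

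PTGS2 varied among controls much more than among pregnant animals, with a highest value 13.1 times the lowest in controls and 1.67 times in pregnant animals. Whether this spread differed between the groups was not tested. The lowest controls, 427 (0.58) and 440 (0.73), were 22 months old, and all other animals were 17 to 20 months old. With age as a covariate PTGS2 changed by -0.93 ± 0.58 and was not called (limma adjusted p = 0.309). The part of age in the spread of PTGS2 was not tested. The controls ordered 404, 449, 434, 330, 440 and 427 from high to low, an order unlike that of OXTR (449, 440, 404, 330, 427 and 434). Over the 6 controls PTGS2 and OXTR correlated at Pearson r = 0.332 (exact permutation p = 0.511, 0.511 after adjustment over 3 relations) and Spearman rho = 0.314 (exact p = 0.564, adjusted 0.564), and at r = 0.098 without controls 434 and 427. Control 440 was second for OXTR with 1.96 and next to last for PTGS2 with 0.73.

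A small set of named genes varied across the controls as PTGS2 did. Deviations from the group means correlated with PTGS2 at 0.948 for ADAMTS4, a protease of matrix proteoglycans, 0.928 for BTG2, an antiproliferative gene of the early response, 0.853 for the tight junction protein CLDN4, 0.844 for the mitochondrial carrier SLC25A25 and 0.800 for the metallothionein MT2A. Without controls 427 and 404 the values were 0.868, 0.774, 0.820, 0.715 and 0.812. These are the highest of 71 correlations over animals that share their arrays, and are given as a description. By level, the 5 highest were BTG2 (0.931), SLC25A25 (0.841), ADAMTS4 (0.783), ZFP36, which promotes decay of messenger RNAs (0.757), and the hormone gene STC1 (0.720). OXTR correlated with PTGS2 at 0.305 by level and 0.362 by deviation.

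BTG2 showed the pattern in its values. Its intensity was 0.51, 0.55, 0.42 and 0.41 in pregnant 316, 426, 447 and 448, against 2.28 in control 404, 1.34 in 449, 0.84 in 434, 0.39 in 330, 0.34 in 440 and 0.17 in 427. The controls followed the order of PTGS2 without exception, and the pregnant animals lay inside their range (-0.41 ± 0.58, limma adjusted p = 0.707). Of its control values 2 lay under 0.37, so the low end of this order rests on dim spots. ADAMTS4 had 0.28 to 0.52 in pregnant animals and 5.14 in control 404, 1.78 in 449, 1.49 in 434, 1.41 in 330, 0.62 in 440 and 0.55 in 427, the same order, but with every pregnant animal below every control. Its decrease of -1.94 ± 0.51 was not called (limma adjusted p = 0.0251) and passed with 1 factor per animal (-2.19) or without control 427 (-2.20). Of its pregnant values 3 lay under 0.37, and with the floor there ADAMTS4 changed by -1.76 (limma adjusted p = 0.0811). SLC25A25 did not keep the control order of PTGS2, with 1.06 in control 434 above 0.93 in control 449. Of its values 2 in controls and 1 in a pregnant animal lay under 0.37.

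**Figure D4:**
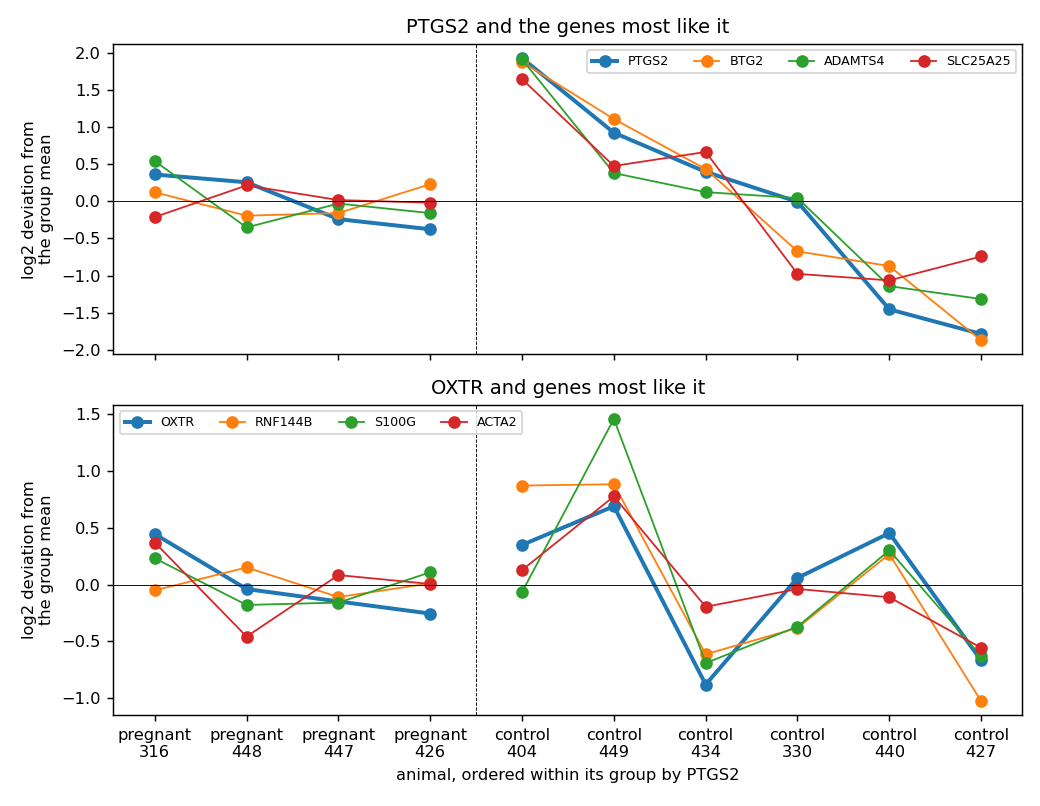
Log2 deviation from the group mean by animal for PTGS2 with BTG2, ADAMTS4 and SLC25A25 (top) and for OXTR with RNF144B, S100G and ACTA2 (bottom), 4 pregnant animals on the left and 6 controls on the right, ordered within each group by PTGS2. In controls PTGS2, BTG2 and ADAMTS4 descend together from animal 404 to 427, and OXTR does not follow this order.

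No relation of either gene to the column scale passed a test, but 6 controls carry little information on such a relation. Over the 6 controls the log2 column median correlated with OXTR at r = 0.514 (exact permutation p = 0.310, adjusted 0.465) and rho = 0.371 (exact p = 0.497, adjusted 0.564), and with PTGS2 at r = 0.630 (exact p = 0.178, adjusted 0.465) and rho = 0.771 (exact p = 0.103, adjusted 0.308). Without controls 449 and 427 r was -0.426 and 0.550.

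Markers of other tissues and cells that can hold these transcripts were read from the same arrays. Uterine muscle expresses OXTR, and of 9 smooth muscle markers ACTA2 and MYLK were named, both of which were called lower. Their summed intensity was 4.81 to 9.33 in pregnant animals and 14.7 to 33.3 in controls. On the 18KO array 29.2% of the named genes and 3.87% of all features were called lower. The call of MYLK, but not that of ACTA2, was lost with the floor at the 10th percentile. ACTA2 (-1.41 ± 0.28) lost its call without any 1 animal other than pregnant 316 and controls 427, 434 and 449, and MYLK (-1.58 ± 0.34) without any 1 animal other than pregnant 316 and control 404. OXTR changed by 2.15 more in the negative direction than their mean, which changed by -1.50 (difference of -2.15, two-sided exact permutation p = 0.00476, a comparison chosen after seeing the data). With the floor at the 10th percentile this difference was -0.43 and missed the threshold (exact permutation p = 0.186).

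The epithelium, the main site of the receptor in endometrium, had 2 of 13 markers named, neither called. CLDN4 was 18.9 to 32.6 in pregnant animals and 1.75 to 19.7 in controls (1.96 ± 0.58, limma adjusted p = 0.0393, called with equal column medians at 2.29), and CLDN10 was 0.586 to 1.05 in pregnant animals and 0.635 to 11.6 in controls (-1.93 ± 0.77). Their summed intensity was 19.6 to 33.4 in pregnant animals and 7.16 to 20.8 in controls. In pregnant animals this sum was nearly all CLDN4, and the 2 markers went in opposite directions. Of 12 stroma markers 6 were named on the 18KO array, with 3 called lower (COL1A1, COL3A1 and COL6A3) and NR2F2 higher, and a summed intensity of 69.5 to 275.4 in pregnant animals and 328.4 to 1086 in controls. On that array 3.87% of all features and 29.2% of the named genes were called lower. All 3 collagen calls were lost with the floor at the 10th percentile, and again without pregnant 448, and COL3A1 lost its call in 8 of the 10 fits without 1 animal. On the 18KB array 3 stroma markers were named and all 3 were called lower (COL1A1, COL1A2 and COL3A1), where 9 of 1420 features (0.634%) and 9 of 86 named genes (10.5%) were. Without 1 animal the call was lost in 4 of 10 fits for COL1A1, 6 for COL1A2 and 1 for COL3A1. Markers of leukocytes, endothelium and red blood cells had no named clone on either array, so their share was not measured. The part of these cells in the results for OXTR and PTGS2 was not tested.

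The trophoblast expresses PTGS2, and of its 12 markers IFNT2, TKDP1 and TKDP4 were named on the 18KB array. Their summed intensity was 1.44 to 41.7 in pregnant animals and 0.955 to 1.79 in controls. IFNT2 and TKDP1 were called higher, though neither call held under any of the 3 other scalings or with the raised floor. Each of these calls was also lost in 8 of the 10 fits without 1 animal. On the 18KB array 77.9% of the named genes and 15.6% of all features were called higher. Pregnant 448 had the highest values, with 16.1 for TKDP1 and 6.95 for IFNT2, and pregnant 316 the lowest of the pregnant animals, with 0.341 and 0.586. PTGS2 was 1.72 in pregnant 448 and 1.85 in pregnant 316, and OXTR 0.111 and 0.155, and the other pregnant animals lay at 1.11 and 1.22 for PTGS2 and at 0.0954 and 0.103 for OXTR.

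**Figure D5:**
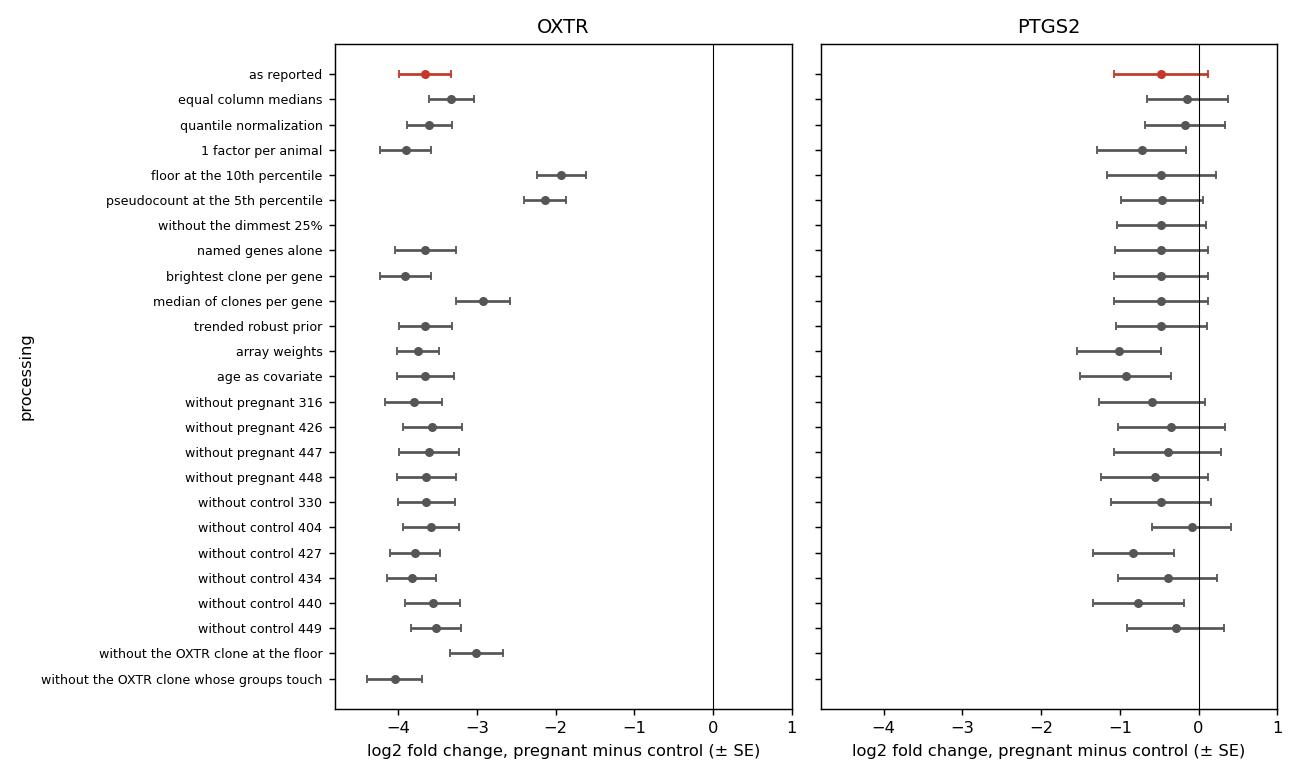
Log2 fold change (pregnant minus control) ± SE of OXTR (left) and PTGS2 (right) as reported and under each alternative processing or without each animal, with an empty place where an alternative gave no value. OXTR ranged from -4.04 to -1.93, closest to 0 with the floor at the 10th percentile, and PTGS2 from -1.01 to -0.09.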

How the data were processed

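Endometrial RNA of 10 animals was measured on 2 spotted cDNA arrays. The deposited file holds linear spot intensity values that the authors had normalized, per the labels; the method and any background subtraction are not given in the sources used here. No further scaling was applied. Values under 0.01 were set to 0.01 before log2 was taken. Names came from the platform's annotation, whose entries may be outdated; the gene identifiers of OXTR and PTGS2 have the same symbols in RefSeq. Clones of 1 symbol were averaged on the log2 scale.

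Groups were compared with limma 3.58.1 (R 4.3.3), fitted and Benjamini-Hochberg adjusted over all clones, or over all features (named genes plus each clone without a single symbol). Calls followed the thresholds of the series design: adjusted p below 0.01, with at least a 2-fold change. Two-sided exact permutation of the animals tested single values. The fit was tested on simulated data. Alternatives varied scaling, floor, pseudocount, filter, clone summary, prior, weights, age, threshold and animals. Figures used matplotlib 3.10.9.

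Members, gene lists and tests were chosen with earlier results of these data known. Named were all members, up to 6 genes of each list and array, and per member the 5 most alike genes by each measure. OLFM2, the values of S100G and the counts of unnamed clones were added after values were seen.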

Additional observations from a re-analysis of the deposited data

Results flagged for a closer look

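Pregnant 448 stood apart from the other pregnant animals in the log2 difference OXTR minus PTGS2, with -3.96 against -3.58 to -3.54. The gap was 0.914 of the range of the group, above the critical value of Dixon's test for 4 samples. Over 18 groups of values checked, chance flags about 1 in 20. The difference between the groups was -3.08 without this animal.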

How the results depend on the processing

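OXTR kept its direction and its call under all 23 alternatives that gave a value, and PTGS2 stayed uncalled and below 0 under all 22. Leaving out 1 animal gave -3.83 to -3.51 for OXTR, -0.83 to -0.09 for PTGS2, -3.50 to -2.80 for the difference of their changes, 5 to 6 OXTR clones called, 0 PTGS2 clones called and 33 to 75 features called, with 33 without pregnant 448 and 43 without pregnant 426. The difference of the changes lost its threshold with the floor at the 10th percentile (-1.45); 18 of its 19 alternatives kept it, and its exact permutation p ran from 0.00476 to 0.0905. With that floor 3 OXTR clones were called, and 1 without the dimmest 25% of clones, a filter that left out the OXTR gene mean. The 70 called features became 142 with equal column medians, 122 after quantile normalization, 171 with 1 factor per animal, 120 with array weights and 194 at an adjusted p under 0.05 with no minimum fold. The causes were not tested. No paired analysis was possible because pregnant and control animals share no number. Signal near the bottom of the scale limits the size of the OXTR decrease.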
